A study of Homo sapiens with 8 samples.

Results

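Human embryonic stem cells (hESCs) of the H9 line that had been kept in culture into their passage 200s (P3 hESCs, samples P3-1 and P3-2) were compared with H9 cells in their passage 100s (P2 hESCs, samples P2-1 and P2-2). These were 4 of the 8 RNA-seq samples of the series, which holds 2 samples each of the lines P1 (passage 40s), P2, P3 and P4 (passage 300s). All were undifferentiated H9 cells (WA09, an established hESC line), grown without feeder cells in mTeSR1 on Matrigel, with no drug and no introduced construct. Each passage range was represented by a single line, so passage number and the history of that line cannot be told apart, and nothing in the labels tells if P3-1 and P3-2, or P2-1 and P2-2, were grown separately. The p-values below take their spread from the 2 samples of each of the 4 lines, P1 and P4 included. They therefore measure only the spread between such samples, which may be technical.

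Pluripotent stem cells in long culture can become culture-adapted: variants that divide faster or die less readily overgrow the dish. A gain of part of chromosome arm 20q, at band 20q11.21, is the best known of the recurrent changes, and it carries BCL2L1, which encodes the antiapoptotic protein BCL-xL. DNA methylation also drifts in culture, so imprinted genes, X-linked genes and single promoters can be switched on or off. The question here was what else differed between P2 and P3 hESCs, the step at which expression from 20q11.21 was first high.

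The expected counts of the 4 libraries summed to between 32843918 and 38095600, and those of all 8 libraries to between 26874899 and 38095600. Levels are given as CPM, counts scaled to library size with edgeR's trimmed mean of M values, which compare a gene between libraries but not 1 gene with another. Transcripts of the mitochondrial genome took 6.55% and 6.72% of the counts in P2-1 and P2-2 but 18.4% in P3-1 and 7.53% in P3-2. The P3 libraries also stood further apart than the P2 libraries: the median absolute log2 difference per gene between the libraries of a line was 0.342 in P3 and 0.186 in P2. Of 27 tested pluripotency factors and markers, 7 were higher and 7 lower in P3 at an unadjusted p under 0.05 by edgeR. Their log2 fold changes ran from -2.25 to 3.99. The hESC factors named next were at like levels in both lines. POU5F1 was at 1620.4 and 1650.4 CPM in P2 and 1919 and 1795 CPM in P3, and SOX2, NANOG, LIN28A and DPPA4 were not DEGs either, with log2 differences between -0.26 and -0.05.

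Of 19499 genes tested, 667 were differentially expressed genes (DEGs: absolute log2 fold change above 1 and FDR, the Benjamini-Hochberg adjusted p of edgeR's quasi-likelihood test, under 0.01), or 3.42% of the genes tested. In P3, 262 genes were higher (1.34%) and 405 were lower (2.08%). The P2 and P3 libraries did not overlap in any of the 667 DEGs, nor in 62.5% of all genes tested. Among the DEGs 570 were protein coding, and 5696 genes, the DEGs included, had an unadjusted p under 0.05. The preceding step, P2 against P1, gave 0 DEGs by the same test, with 1782 genes at an unadjusted p under 0.05 and a smallest FDR of 0.0173. The following step, P4 against P3, gave 159 DEGs (0.815%), 108 higher (0.554%) and 51 lower (0.262%), and shares the P3 samples with the comparison described here, so P1 and P4 levels are given below only side by side. Leaving out a single library changed the number of DEGs from 667 to 206 without P2-1, 177 without P2-2 and 343 without P3-1, and to between 474 and 856 without any of the other 5. Of the 667 DEGs, 149 were called in all 8 of these fits, 48 higher and 101 lower. The lead genes below include MAGEA4, LCP1, IFIT1, IFIT2, TPX2, INPP5F, MT1G, CHCHD2, PYCR1 and MGMT, which belonged to those 149.

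**Figure D1:**
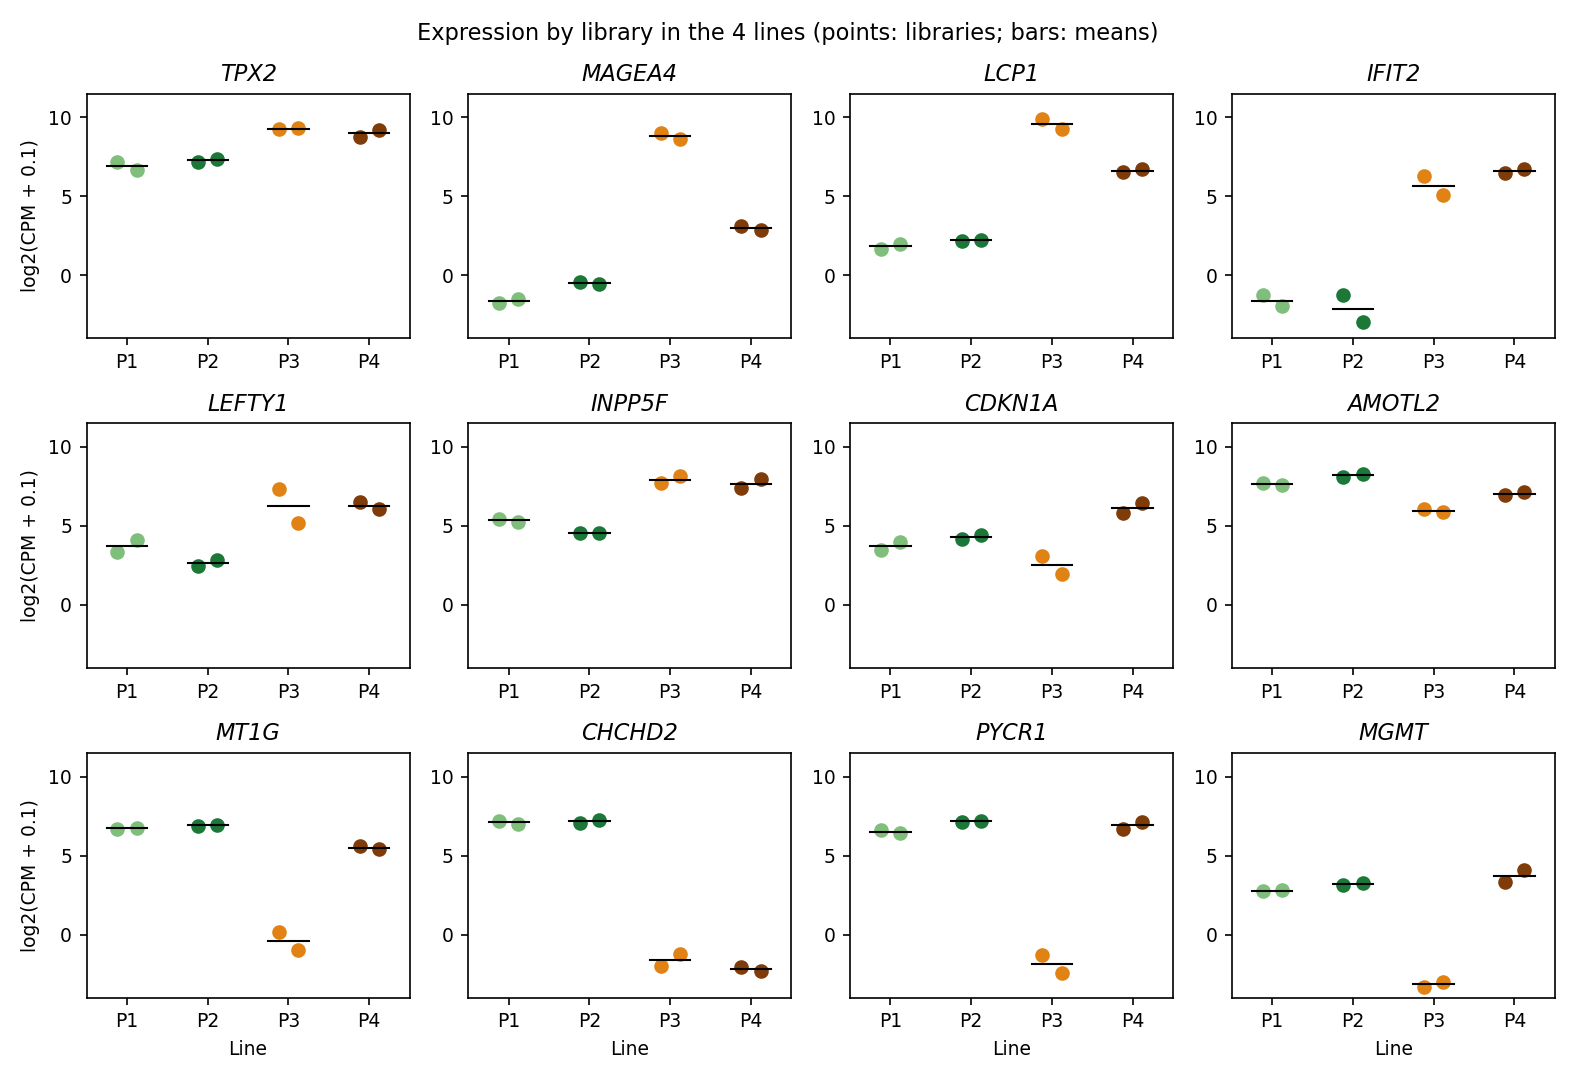
Expression of 12 genes in each of the 8 libraries, as log2(CPM + 0.1), with points for libraries and bars for the means of the 4 lines. TPX2, MAGEA4, LCP1, IFIT2, LEFTY1 and INPP5F were higher in both P3 libraries than in both P2 libraries, CDKN1A, AMOTL2, MT1G, CHCHD2, PYCR1 and MGMT were lower in both, and in P4 some levels (PYCR1, MGMT) lay near P2 and others (TPX2, CHCHD2) near P3.

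Band 20q11.21 held 30 tested genes, and 14 of them were higher in P3 and 0 lower, against 1.34% and 2.08% of all genes. Its median log2 fold change was 1.40, against -0.01 over all genes tested, and 27 of the 30 values were above 0. Because this band was known to rise at this step, the count is a description. TPX2 (ENSG00000088325, chr20:31739271-31801805, GRCh38), which activates the mitotic kinase Aurora A and targets it to the spindle, was at 142 and 166 CPM in P2 and 608 and 629.9 CPM in P3. The lines did not overlap, and the rise was 4.01-fold (log2 fold change 2.00, SE 0.24, edgeR FDR = 0.000328). P1 libraries held 142 and 99.7 CPM of TPX2, and P4 libraries 435 and 590.0 CPM. BCL2L1 (chr20:31664452-31723989) was at 73.0 and 79.6 CPM in P2 and 212 and 164 CPM in P3, without overlap. Its log2 fold change was 1.299 (SE 0.21, edgeR FDR = 0.00238), and it was no longer a DEG without P2-1, without P2-2 or without P3-1.

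Within the band a segment was drawn from the first DEG, HM13, to the last, COMMD7, after the calls were seen. It holds all 14 DEGs by that definition. From HM13 to COMMD7 (chr20:31514410-32743997) 14 of 24 tested genes were DEGs, and the 24 had a median log2 fold change of 1.44, whereas the 6 genes beyond COMMD7 had a median of 0.21 and 0 DEGs. Beyond the band on that side, 20q11.22 and 20q11.23 had 0 higher DEGs among 40 and 44 tested genes, with median log2 fold changes of -0.07 and 0.01. On the other side, 20q11.1 had 0 DEGs among only 3 tested genes, but their median log2 fold change was 2.32. HM13, a signal peptide peptidase that cleaves membrane-bound peptides, rose from 57.9 and 65.3 CPM to 378 and 221 CPM (log2 fold change 2.28, SE 0.28, edgeR FDR = 0.000472). Its counts are uncertain because the retrogene MCTS2 lies in it on the same strand, and MCTS2 was itself at most 0.0974 CPM in P2 and 1.23 and 1.17 CPM in P3. XKR7 rose from 10.49 and 10.8 CPM to 52.0 and 35.7 CPM (log2 fold change 2.04, SE 0.23, edgeR FDR = 0.000268). The kinesin gene KIF3B, the O-fucosyltransferase gene POFUT1, the chromatin regulator ASXL1, COMMD7, PDRG1, TM9SF4, NOL4L, PLAGL2 and the pseudogene TSPY26P rose by between 1.14 and 1.66 on the log2 scale, and none of these 9 was called without P2-2.

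ID1 was the lowest of the 10 genes of that segment that were not DEGs. ID1, an inhibitor of differentiation that is induced by BMP signals, lies between HM13 and BCL2L1 and was at 162 and 192 CPM in P2 and 107 and 86.9 CPM in P3 (log2 fold change -0.87, SE 0.30, edgeR FDR = 0.0786). It lay below both P2 libraries in both P3 libraries without passing the test, and P4 libraries held 224 and 436 CPM. DNMT3B, the de novo DNA methyltransferase gene just beyond COMMD7, was at 1165 and 1187 CPM in P2 and 1361 and 1278 CPM in P3 (log2 fold change 0.17, SE 0.22, edgeR FDR = 0.65). Per library, the median log2 difference of the 30 genes from the P2 mean was 1.18 in P3-1 and 0.99 in P3-2, and 1.12 and 1.299 in the P4 libraries. The number of DEGs in the band was 4 without P2-1, 3 without P2-2, 8 without P3-1 and between 11 and 14 without each of the others. RNA counts do not measure the copy number of the segment.

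**Figure D2:**
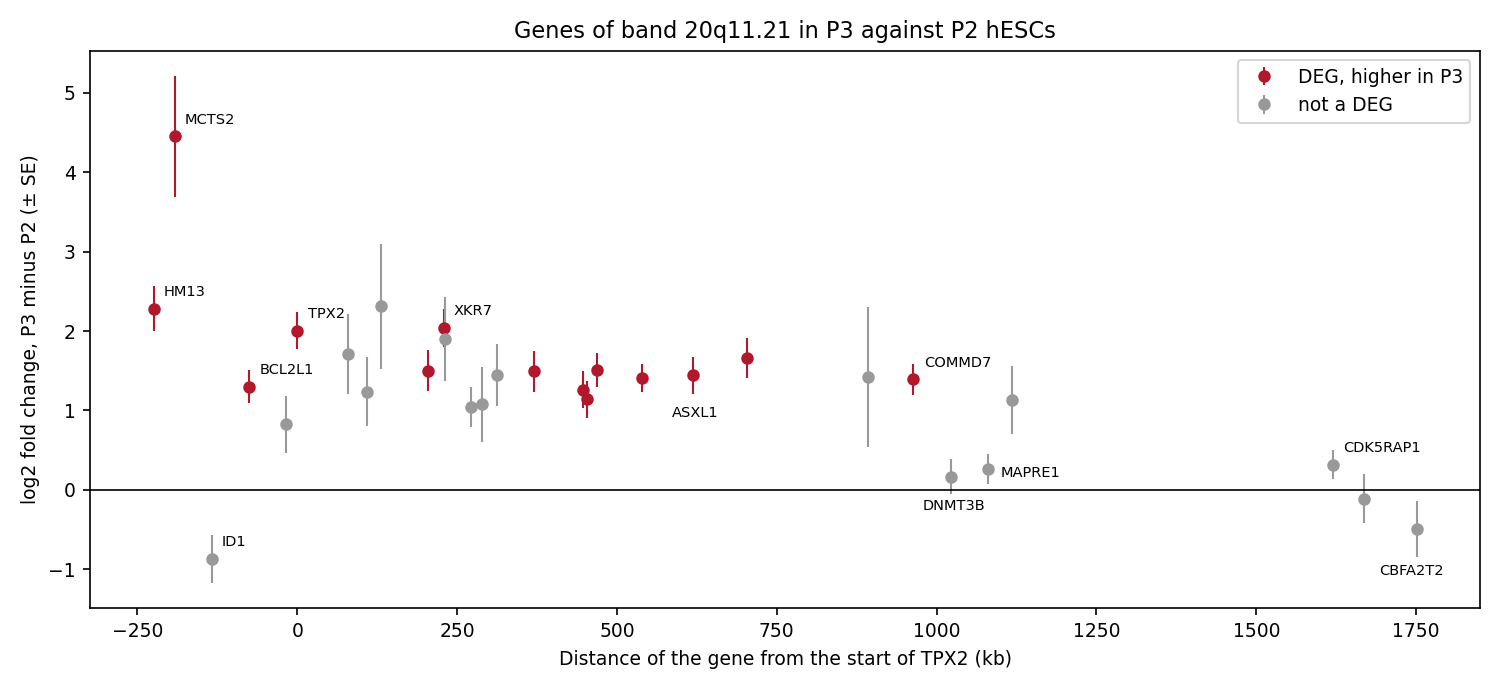
Log2 fold change of P3 against P2, with its SE, for the 30 tested genes of band 20q11.21, by distance in kb from the start of TPX2. The 14 DEGs lie between HM13 and COMMD7 with log2 fold changes between 1.14 and 4.45, ID1 lies below 0 within that stretch, and DNMT3B, MAPRE1 and CDK5RAP1 beyond it lie at 0.17, 0.26 and 0.32.

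Chromosome X was the chromosome with the largest share of higher DEGs of the 23 examined. Of 698 tested X-linked genes 71 were higher in P3 (10.2%) and 10 lower (1.43%), whereas of 18638 autosomal genes 191 were higher (1.02%) and 392 lower (2.10%). The median log2 fold change was 0.32 over X-linked genes and -0.02 over autosomal genes, and 0.22 over the X-linked genes that were not DEGs. By library, the median log2 difference of X-linked genes from the P2 mean was 0.26 in P3-1 and 0.22 in P3-2, 0.13 in each P4 library, and 0.03 and -0.01 in the P1 libraries. Both P3 libraries thus lay above the 4 earlier ones, with 65.8% and 64.6% of X-linked genes above their P2 mean. On deposited TPM the X-linked median was -0.01 where that of all genes was -0.21, so it was again 0.20 above all genes but not above 0. Without P2-1, P2-2 or P3-1 the number of higher X-linked DEGs was 18, 15 or 37.

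The X-linked DEGs ran from abundant to barely expressed genes. TMSB4X, which encodes an actin-sequestering peptide, went from 653 and 593 CPM to 2048 and 2254 CPM (log2 fold change 1.79, SE 0.21, edgeR FDR = 0.000328). The chromatin genes MORF4L2 and HMGB3 rose from 260.2 and 249 CPM to 666 and 552 CPM and from 242 and 253 CPM to 556 and 622 CPM. BEX3, EIF1AX (a translation initiation factor) and TIMP1 (an inhibitor of metalloproteinases) also rose, whereas GPC3, a glypican, fell from 229 and 237 CPM to 107 and 85.9 CPM. These genes were chosen after their values were seen, and each call was lost without at least 1 library, that of TMSB4X without P2-2. Band Xq22.2, home of the BEX and TCEAL families, had 7 higher DEGs among 24 tested genes, and the log2 fold changes of all 24 were above 0. Among the rest, Xp11.23 had 9 higher DEGs of 49 tested and Xp22.2 had 7 of 41. The share of higher DEGs was 1.34% over all tested genes and 10.2% over X-linked genes.

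**Figure D3:**
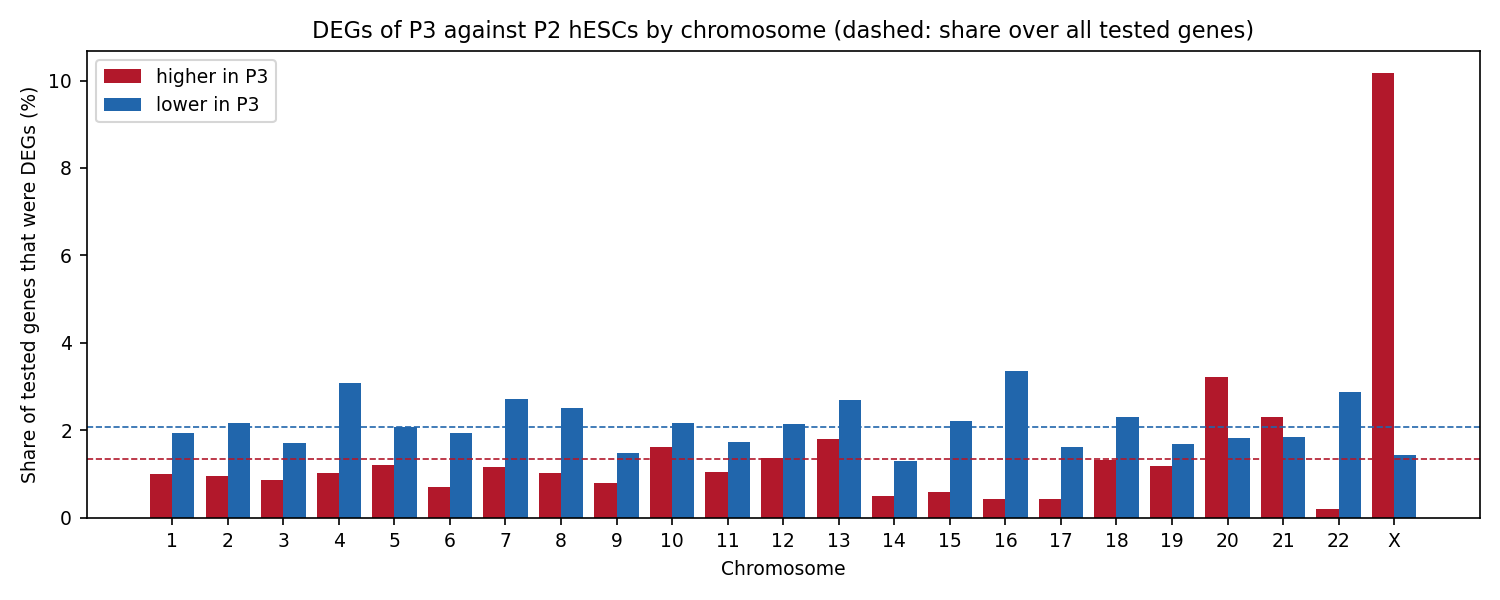
Share of the tested genes of each chromosome that were DEGs, higher (red) or lower (blue) in P3 than in P2, in percent, with dashed lines at the shares over all tested genes (1.34% and 2.08%). The bar of higher DEGs on chromosome X stands at 10.2%, and that of chromosome 20 holds the 14 genes of 20q11.21.

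DEGs also lay side by side. Counting genes next to each other among those tested, 9 runs of at least 3 DEGs of the same direction held 41 genes. The longest were the 7 metallothionein genes from MT1E to MT1X over 58.7 kb of chromosome 16 (all lower), the 7 genes from TM9SF4 to NOL4L of 20q11.21, the 6 genes from CSAG2 to CSAG3 over 52.0 kb of chromosome X, and the 6 genes from TCEAL8 to BEX3 over 125 kb of chromosome X. Shorter runs were IFIT2, IFIT3 and IFIT1 on chromosome 10, and ZNF880, ZNF528-AS1 and ZNF528 on chromosome 19, all higher. Of 1060 head-to-head gene pairs, whose starts lie within 1000 bases on opposite strands with the plus-strand start after the minus-strand start, 5 pairs had DEGs on both sides, in each case of the same direction. They were ZNF528-AS1 with ZNF528, PLAGL2 with POFUT1, CSAG2 with MAGEA2B, CSAG1 with MAGEA12, and MAGEA2 with CSAG3. Another 49 pairs had a DEG on a single side. The sources used here do not say whether the counting used strand, so genes that overlap another gene on the opposite strand are uncertain.

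Some genes went from silence to expression. In 38 of the 262 higher DEGs both P2 libraries held at most 3 counts, a floor of 0.0840 CPM, and in 28 of these 38 both P1 libraries did as well. In both P4 libraries 32 of the 38 were above the floor and 5 were not. The median rise over the floor was at least 30.4-fold. The cancer-testis families of chromosome X, whose members are normally silent outside germ cells, had 7 higher DEGs among 9 tested genes (MAGEA2, MAGEA2B, MAGEA4, MAGEA12, CSAG1, CSAG2 and CSAG3), and the same 7 were called whichever library was left out. Over all tested genes 1.34% were higher, but only 9 of the 92 listed members of these families were tested. MAGEA12, CSAG1, CSAG2 and CSAG3 were at or under the floor in P1 and P2. They passed the filter on low counts only through P3 or P4, so the count is a description. A second list, of germline and cancer-testis genes, had 5 higher and 0 lower DEGs of 21 tested. Its median log2 fold change was -0.002. MAGEA4 (ENSG00000147381, chrX:151912509-151925170) was at 0.633 and 0.588 CPM in P2 and 503 and 402 CPM in P3. This 735-fold rise (log2 fold change 9.52, SE 0.29, edgeR FDR = 4.4e-09) had the smallest FDR of all genes, and P4 libraries held 8.62 and 7.30 CPM, between P2 and P3. MAGEA12 was at most 0.0280 CPM in P2 and at 18.8 and 44.9 CPM in P3, at least 379-fold higher. MAGEA2 rose from 0.463 and 0.560 CPM to 61.3 and 54.8 CPM and was at 0 in both P4 libraries, and CSAG1 was at least 95.9-fold higher. Members of these families share nearly identical copies, MAGEA2 and MAGEA2B and CSAG2 and CSAG3 above all, so the split of counts among them is uncertain.

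Zinc finger genes, many of which encode repressors of transposable elements, included single genes with wide differences in both directions. Of 475 tested genes named ZNF, 8 were higher and 14 lower (4.63%, against 3.42% of all genes), and their median log2 fold change was 0.01, so the values below are those of single genes. ZNF528 and ZNF560 were each at least 179-fold higher than the P2 floor, at 13.3 and 16.8 CPM and at 17.8 and 12.3 CPM in P3. ZNF502, at 16.7 and 10.3 CPM in P3, was at least 161-fold higher. All 3 stayed expressed in P4, where ZNF560 reached 45.7 and 49.4 CPM. In the other direction, ZNF680 was at 9.96 and 5.97 CPM in P2 and at most 0.0316 CPM in P3, at least 84.0-fold lower, and remained at most 0.0673 CPM in P4. ZNF732 was at 7.91 and 7.45 CPM in P2, at most 0.0558 CPM in P3 and 14.8 and 14.5 CPM in P4. Zinc finger genes are a large family with related copies, and their counts carry that uncertainty.

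Other strong rises had no common family. LCP1 (chr13:46125920-46211871), the actin-bundling protein L-plastin of blood cells, was at 4.43 and 4.65 CPM in P2 and 957 and 609 CPM in P3 (172-fold, log2 fold change 7.43, SE 0.31, edgeR FDR = 4.14e-08). P4 libraries held 91.6 and 104 CPM of LCP1, above P1 and P2. Of 5 blood markers PTPRC, HBB and LYZ were at most 0.0948 CPM in the P2 and P3 libraries and HBA1 at most 0.474 CPM, whereas CD74 was at 29.2 and 36.4 CPM in P2 and 73.3 and 44.3 CPM in P3 without being a DEG (log2 fold change 0.84, SE 0.25, edgeR FDR = 0.0482). INPP5F, a phosphoinositide phosphatase with an imprinted transcript, rose from 23.6 and 23.5 CPM to 209.9 and 281 CPM (log2 fold change 3.38, SE 0.25, edgeR FDR = 5.67e-06). PDK1, the kinase that holds pyruvate dehydrogenase inactive, rose from 34.5 and 29.8 CPM to 122 and 149.96 CPM (log2 fold change 2.08, SE 0.20, edgeR FDR = 6.01e-05). It was the single DEG among 26 tested genes of glucose uptake and glycolysis (3.85%, against 3.42% of all genes).

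In the 405 lower DEGs, 47 had at most 3 counts in both P3 libraries, a floor of 0.0948 CPM. Both P1 libraries were above the floor for 45 of these 47, and both P4 libraries for 34, while 9 were at the floor in both P4 libraries. CRYZ, a quinone reductase gene at chr1:74705482-74733408, went from 25 and 19.6 CPM to at most 0.0279 CPM, at least 235-fold lower, and stayed at most 0.0343 CPM in P4. TYW3, which starts next to it on the opposite strand and overlaps it, went from 38.8 and 30.4 CPM to 0.379 and 0.112 CPM. MGMT, which removes alkyl groups from guanine in DNA, was at 8.72 and 9.55 CPM in P2 and at 0 and 0.0279 CPM in P3, at least 96.4-fold lower. P4 libraries held 10.1 and 17.0 CPM of MGMT, above both P2 libraries. TRIM4 was at least 94.3-fold lower and stayed at most 0.101 CPM in P4.

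A pair of abundant nuclear genes that encode mitochondrial proteins fell almost to nothing. PYCR1 (chr17:81932384-81942412), the last enzyme of proline synthesis, was at 141 and 146 CPM in P2 and 0.316 and 0.0837 CPM in P3 (log2 fold change -9.50, SE 0.39, edgeR FDR = 4.14e-08). P4 libraries held 104 and 139 CPM and P1 libraries 96.8 and 86.7 CPM of PYCR1, which shares exon sequence with the overlapping gene MYADML2. CHCHD2 (chr7:56101569-56106576), an intermembrane space protein that supports respiration, was at 135 and 154 CPM in P2 and 0.158 and 0.335 CPM in P3 (log2 fold change -9.15, SE 0.33, edgeR FDR = 1.44e-08). It was at 0.137 and 0.101 CPM in P4. Counts of CHCHD2 are uncertain because it has processed pseudogenes. THBS1, the matrix glycoprotein thrombospondin 1, fell from 527 and 507 CPM to 37.8 and 49.8 CPM, and MYC, the growth-promoting transcription factor, from 145 and 153 CPM to 54.6 and 30.9 CPM (log2 fold changes -3.56 and -1.80). THBS1, MYC, LCP1 and TYW3 were chosen after their values were seen, and MYC was not called without P2-1, P2-2 or P3-2.

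Metallothioneins are small cysteine-rich proteins that bind zinc, copper and cadmium, and the zinc sensor MTF1 switches their genes on through metal response elements in their promoters. This list was added after its values had been seen, so its counts are a description. Of 10 tested members of the 16q13 cluster 8 were lower DEGs and 0 higher, against 2.08% and 1.34% of all genes. No value was above 0. MT1L and MT3, both at or under 0.0632 CPM in P3, were not DEGs. Their promoters are shown because the genes fell together. RefSeq promoters of GRCh38.p14 were available for 3 of the 10 tested genes, and the 250 bases before each start are given for MT2A (chr16:56608334-56608583, plus strand), MT1H (chr16:56669564-56669813, plus strand) and MT1X (chr16:56682220-56682469, plus strand), 5′ to 3′, with matches to TGCACNC or TGCGCNC on either strand in capitals.
MT2A: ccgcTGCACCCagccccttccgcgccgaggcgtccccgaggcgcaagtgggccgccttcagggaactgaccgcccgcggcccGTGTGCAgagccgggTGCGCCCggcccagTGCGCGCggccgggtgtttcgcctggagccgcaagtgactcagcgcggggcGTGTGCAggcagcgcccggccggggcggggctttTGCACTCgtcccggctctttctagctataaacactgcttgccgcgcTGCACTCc
MT1H: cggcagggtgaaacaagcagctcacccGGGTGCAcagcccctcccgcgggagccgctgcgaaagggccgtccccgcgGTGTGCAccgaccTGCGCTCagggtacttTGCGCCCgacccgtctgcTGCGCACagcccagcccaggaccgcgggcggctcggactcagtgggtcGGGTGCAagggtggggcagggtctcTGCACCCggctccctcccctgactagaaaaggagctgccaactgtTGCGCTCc
MT1X: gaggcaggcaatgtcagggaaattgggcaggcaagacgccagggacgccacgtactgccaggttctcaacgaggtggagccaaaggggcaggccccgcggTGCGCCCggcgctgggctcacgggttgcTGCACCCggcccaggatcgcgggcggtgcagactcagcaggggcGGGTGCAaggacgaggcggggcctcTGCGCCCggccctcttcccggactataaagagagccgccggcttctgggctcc

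These letters were found 7 times in the MT2A promoter, 8 times in that of MT1H and 4 times in that of MT1X, with no overlap between matches. Of all 35097 RefSeq promoter windows, 24.8% held at least 1 match and 0.368% held 4 or more. A match is a description of letters and was not tested as a site. MT2A fell from 107 and 119 CPM to 1.61 and 0.586 CPM (log2 fold change -6.70, SE 0.42, edgeR FDR = 1.83e-06). MT1X fell from 244 and 258 CPM to 15.3 and 10.7 CPM (log2 fold change -4.27, SE 0.24, edgeR FDR = 6.44e-07). MT1G fell from 118 and 122 CPM to 1.04 and 0.418 CPM (log2 fold change -7.38, SE 0.34, edgeR FDR = 1.32e-07).

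MT1E, MT1F and MT1H likewise fell from between 24.4 and 87.2 CPM in P2 to under 1 CPM in both P3 libraries, and MT1M was at least 28.6-fold lower. Over the 10 genes the log2 fold change had a median of -6.86, or -5.32 with the 4 members at the P3 floor set to their bounds. In P4 the levels lay between those of P3 and P2 for most members, with 49.0 and 42.0 CPM of MT1G and 69.1 and 85.1 CPM of MT1X, while MT1F was at 27.2 and 22.5 CPM, close to its P2 level of 24.4 and 27.8 CPM. The number of lower DEGs was 7 or 8 whichever library was left out. Metallothionein genes resemble each other closely, so how the counts were shared among them is uncertain.

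**Figure D4:**
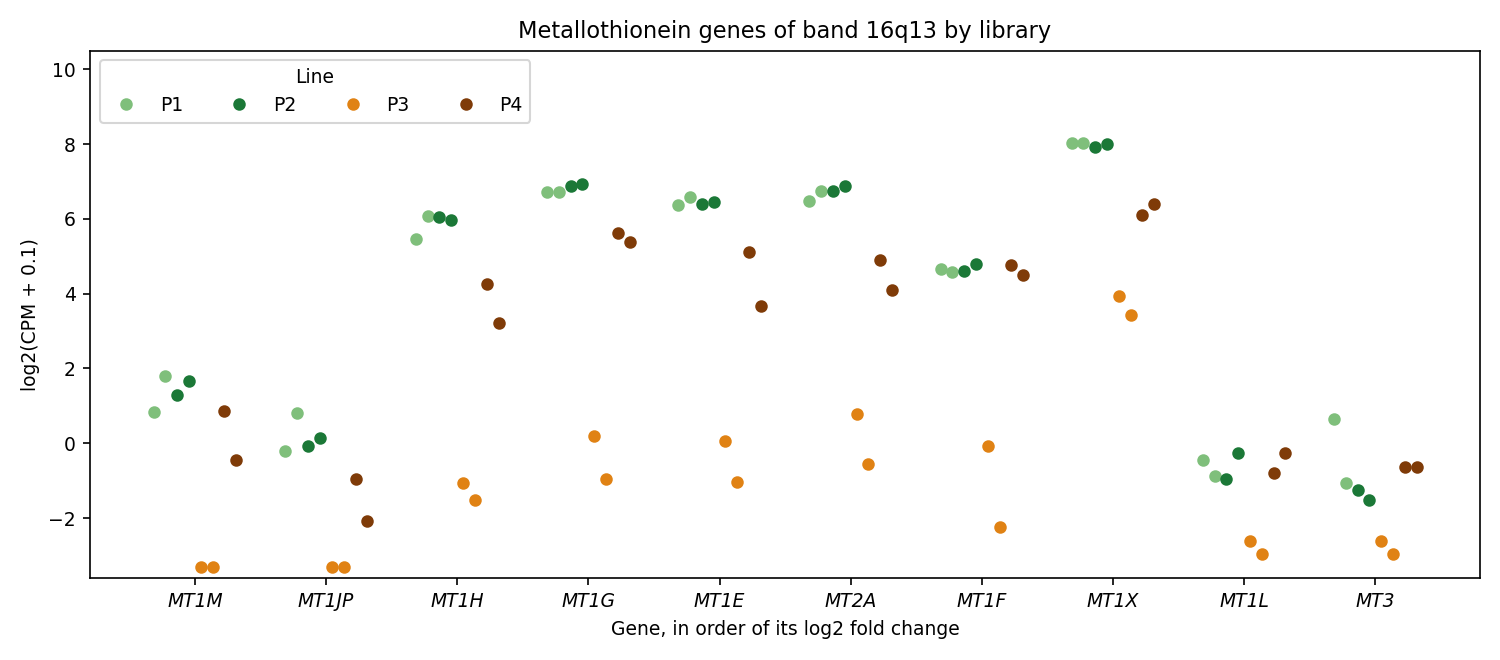
Levels of the 10 tested metallothionein genes in the 8 libraries, as log2(CPM + 0.1), in the order of their log2 fold change. For each of the 10 genes both P3 libraries lie below the other 6, and for MT1X they stand at 15.3 and 10.7 CPM.

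Interferon-stimulated genes are induced when cells sense viral or displaced nucleic acid, by interferon through its receptors or directly through IRF3, and undifferentiated hESCs are known for a weak interferon response. Their promoters often hold the element GAAANN followed by GAAA. The promoters of 3 genes that rose are shown, 250 bases before the RefSeq start in GRCh38.p14, 5′ to 3′, with matches on either strand in capitals: IFIT1 (chr10:89392373-89392622), IFIT3 (chr10:89327747-89327996) and ISG15 (chr1:1013247-1013496), all on the plus strand.
IFIT1: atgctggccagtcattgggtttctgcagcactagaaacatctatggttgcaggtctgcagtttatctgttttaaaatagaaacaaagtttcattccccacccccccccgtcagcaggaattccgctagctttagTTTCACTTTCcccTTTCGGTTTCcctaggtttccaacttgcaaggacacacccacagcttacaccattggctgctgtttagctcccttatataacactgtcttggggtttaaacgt
IFIT3: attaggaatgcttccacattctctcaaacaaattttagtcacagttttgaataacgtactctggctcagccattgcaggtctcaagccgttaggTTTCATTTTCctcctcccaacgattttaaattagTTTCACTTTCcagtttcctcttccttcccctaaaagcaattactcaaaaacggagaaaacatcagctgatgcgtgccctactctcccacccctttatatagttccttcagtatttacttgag
ISG15: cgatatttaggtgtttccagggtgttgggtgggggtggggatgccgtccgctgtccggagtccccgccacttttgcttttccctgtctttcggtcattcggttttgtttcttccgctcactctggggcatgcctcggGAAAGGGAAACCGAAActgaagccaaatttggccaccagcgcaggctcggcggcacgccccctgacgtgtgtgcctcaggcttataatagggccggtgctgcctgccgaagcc

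Each of these windows held 2 matches, which overlapped in ISG15, and 3.02% of the 35097 windows held at least 1. A RefSeq promoter was available for 30 of the tested effectors. Counted by gene, 23 of the 30 held a match, against 3.33% of all tested genes with a promoter. A link between these matches and the rise was not tested. Of 37 tested effectors 10 were higher in P3 and 1 lower, against 1.34% and 2.08% of all genes. OAS1, OAS2, OASL, IFI44, SAMD9 and CXCL10 were at or under the floor in P1 and P2. These passed the filter on low counts only through P3 or P4, so the count of higher effectors is a description. Their median log2 fold change was 0.51, with 27 of 37 values above 0. That median did not move with the members at the floor set to their bounds. The IFIT proteins bind foreign RNA. IFIT1 rose from 3.99 and 4.48 CPM to 120.4 and 60.7 CPM (log2 fold change 4.42, SE 0.33, edgeR FDR = 7.1e-06), IFIT2 from 0.317 and 0.0280 CPM to 76.0 and 32.9 CPM, and IFIT3 from 1.53 and 1.15 CPM to 44.3 and 22.7 CPM. ISG15, a ubiquitin-like modifier, rose from 13.9 and 18.0 CPM to 85.1 and 32.4 CPM (log2 fold change 1.88, SE 0.36, edgeR FDR = 0.00768). In each of these 4 genes P3-1 was above P3-2 and both were above P2, and ISG15 was not called without P1-1, P1-2, P2-1, P2-2 or P3-1.

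OAS1, OAS2 and OASL (sensors and relatives that respond to double-stranded RNA), IFI44, SAMD9 and the chemokine CXCL10 were at or under the floor in P2 and rose by at least 14.3-fold to at least 49.0-fold, and the chemokine CCL5 by at least 52.8-fold. TRIM22 went the other way, from 69.4 and 61.8 CPM to 6.95 and 14.5 CPM (log2 fold change -2.61, SE 0.31, edgeR FDR = 0.000319). Levels stayed high in P4, where IFIT1 was at 118 and 138 CPM and IFIT2 at 87.2 and 104 CPM. Higher effectors numbered between 6 and 10 when a library was left out, 7 without P2-1 and 6 without P2-2.

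The RNA sensors IFIH1 (MDA5) and RIGI rose from 1.53 and 1.91 CPM to 11.1 and 6.97 CPM and from 7.77 and 6.47 CPM to 19.7 and 18.7 CPM (log2 fold changes 2.39 and 1.43). They were the 2 DEGs among 15 sensors and signaling genes (13.3%, against 3.42% of all genes). Neither was called without P2-1 or P2-2. IRF9, a transcription factor of the interferon response, was at 5.16 and 5.60 CPM in P2 and 3.82 and 4.13 CPM in P3 (log2 fold change -0.44, SE 0.30, edgeR FDR = 0.355). The type III interferon gene IFNL1 had no counts in P1 and P2 and was at 1.74 and 0.502 CPM in P3 and 2.47 and 3.97 CPM in P4, at least 13.3-fold higher, but was not called without P2-1, P2-2 or P3-1. Of 18 genes of MHC class I presentation only B2M, the light chain of the complex, was a DEG (5.56%, against 3.42% of all genes). It was at 84.3 and 64.8 CPM in P2 and 306 and 183 CPM in P3 (log2 fold change 1.71, SE 0.25, edgeR FDR = 0.00133) and was not called without P2-2. HLA-B and HLA-C, with log2 differences of 0.40 and 0.50, were not DEGs.

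Cells with damaged DNA raise genes that arrest the cell cycle, repair the damage or set off apoptosis. The genes of this kind described here were chosen because they were DEGs, or as well-known members, and no count over them is given. DDB2, a sensor of UV damage, fell from 74.7 and 75.3 CPM to 16.7 and 17.8 CPM (log2 fold change -2.12, SE 0.25, edgeR FDR = 0.000331). PHLDA3, an inhibitor of AKT, fell from 26.2 and 26.5 CPM to 7.52 and 6.25 CPM (log2 fold change -1.94, SE 0.21, edgeR FDR = 0.00018), and the stress cytokine GDF15 from 9.91 and 12.6 CPM to 0.727 and 0.307 CPM (log2 fold change -4.45, SE 0.53, edgeR FDR = 0.000376). In all 3 the lines were wide apart, and all 3 were called whichever library was left out.

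CDKN1A, the cell cycle inhibitor p21, was at 18.2 and 21.0 CPM in P2 and 8.44 and 3.85 CPM in P3 (log2 fold change -1.68, SE 0.34, edgeR FDR = 0.00993). This was close to the threshold, and the call was lost without P1-1, P1-2, P2-1, P2-2 or P3-2. P4 libraries held 57.0 and 86.0 CPM of CDKN1A, above all other libraries, and 40.7 and 37.7 CPM of PHLDA3. MDM2, a ubiquitin ligase, was at 91.4 and 82.2 CPM in P2 and 71.5 and 56.1 CPM in P3 and was not a DEG (log2 fold change -0.44, SE 0.23, edgeR FDR = 0.217). EDA2R, SPATA18, SESN2, BTG2, FDXR, TNFRSF10B and RRM2B were also lower DEGs. Of these, EDA2R alone was called whichever library was left out.

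In the BCL2 family, which sets the threshold for apoptosis at mitochondria, 3 of 15 tested members were DEGs, against 3.42% of all genes. The antiapoptotic BCL2L1 rose, as given above. The pore-forming BAX fell from 112 and 119 CPM to 38.0 and 48.2 CPM (log2 fold change -1.42, SE 0.20, edgeR FDR = 0.000981), and was not called without P2-2 or P3-1. The BH3-only activator of apoptosis HRK fell from 6.99 and 7.76 CPM to 1.07 and 0.976 CPM (log2 fold change -2.84, SE 0.31, edgeR FDR = 0.00018). BAK1, MCL1 and PMAIP1 had log2 differences of 0.54, -0.37 and 0.14 and were not DEGs, and BBC3, which encodes PUMA, was at 22.7 and 22.8 CPM in P2 and 13.2 and 7.67 CPM in P3 (edgeR FDR = 0.019). P4 libraries held 96.2 and 113 CPM of BAX and 4.26 and 4.41 CPM of HRK.

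YAP1 and TAZ are coactivators of TEAD factors that report cell shape and density and are held in check by the Hippo kinases. Of 22 tested YAP/TAZ targets 9 were lower in P3 and 0 higher, against 2.08% and 1.34% of all genes. Their median log2 fold change was -1.18. At an unadjusted p under 0.05, 3 targets were higher and 15 lower. AMOTL2, a target that binds YAP1 in turn, fell from 278 and 316 CPM to 66.4 and 57.7 CPM (log2 fold change -2.26, SE 0.20, edgeR FDR = 3.03e-05). CCN2, a matrix-associated growth factor, was at 309 and 315 CPM in P2 and 135 and 143 CPM in P3 without being a DEG (log2 fold change -1.17, SE 0.26, edgeR FDR = 0.0156).

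NUAK2, FJX1, NT5E, IGFBP3, LATS2, AXL and PTPN14 were also lower targets. AJUBA, LATS2, AMOTL2 and PTPN14 were the 4 DEGs among 23 pathway factors and regulators, all lower, against 2.08% of all genes. Of these 4, LATS2, AMOTL2 and PTPN14 were already counted among the lower targets. YAP1 was at 125 and 103 CPM in P2 and 205 and 211 CPM in P3, above the P2 libraries but not a DEG (log2 fold change 0.87, SE 0.23, edgeR FDR = 0.0303), and WWTR1, which encodes TAZ, and TEAD4 had log2 differences of -0.01 and 0.30. In P4 AMOTL2 was at 122 and 143 CPM. Lower targets numbered 4 without P2-1 or P2-2, 5 without P3-2 and 7 or more without the others.

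ATF4 and its partners raise genes of the integrated stress and unfolded protein responses when amino acids run short or proteins misfold. These genes were lower in 7 of 27 tested cases and higher in 0, against 2.08% and 1.34% of all genes. CHAC1, which degrades glutathione, fell from 118 and 129.8 CPM to 16.7 and 8.48 CPM (log2 fold change -3.30, SE 0.41, edgeR FDR = 0.000491). The transcription factor ATF3 fell from 66.2 and 66.3 CPM to 15.7 and 13.3 CPM (log2 fold change -2.19, SE 0.33, edgeR FDR = 0.00166), and DDIT3, SESN2, CEBPB, HERPUD1 and the amino acid transporter SLC7A5 fell as well. Their P1 levels, 60.9 and 28.7 CPM for CHAC1 and 38.3 and 23.8 CPM for ATF3, lay between those of P2 and P3. This count rested on single libraries: it was 1 (CHAC1) without P3-2, 2 without P2-1 or P2-2, and 3 without P3-1.

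NODAL and activin sustain pluripotency through SMAD2 and SMAD3, while BMPs act through SMAD1 and SMAD5 and induce the ID genes. Of 29 tested genes of these pathways 4 were higher and 4 lower, against 1.34% and 2.08% of all genes. The 4 higher ones were ligands of the NODAL branch and its inhibitors. LEFTY1 was at 5.48 and 7.0 CPM in P2 and 163 and 36.4 CPM in P3 (log2 fold change 3.99, SE 0.56, edgeR FDR = 0.00103), NODAL at 2.80 and 2.47 CPM against 36.5 and 8.14 CPM, and LEFTY2 at 1.49 and 1.88 CPM against 18.99 and 6.78 CPM. GDF3 was at 4.04 and 4.79 CPM in P2 and 23 and 11.7 CPM in P3. The lines did not overlap, but P3-1, the library with 18.4% mitochondrial counts, was above P3-2 in each. Without P3-1 LEFTY1 was the 1 of the 4 that was called, and none was called without P2-1 or without P2-2. The part of the mitochondrial share in these values was not tested.

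On the BMP side ID3 fell from 293 and 381 CPM to 59.8 and 63.5 CPM (log2 fold change -2.45, SE 0.27, edgeR FDR = 0.00021). ID2 fell from 107 and 91.7 CPM to 23.5 and 16.9 CPM, ID4 from 45.7 and 34.9 CPM to 11.1 and 6.61 CPM, and the ligand BMP2 from 20.3 and 19.6 CPM to 6.13 and 3.99 CPM. In all 4 both P3 libraries lay well below both P2 libraries, and ID3 was called whichever library was left out, whereas the count of 4 was 2 without P2-1 or P3-2. P4 libraries held 122.8 and 207 CPM of ID3.

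Of 15 tested mesendoderm markers 2 were lower and 1 higher in P3, against 2.08% and 1.34% of all genes. Their median log2 fold change was -1.79, with 4 values above 0. At an unadjusted p under 0.05 by edgeR there were 8 lower and 2 higher. EOMES and HAND1, mesendoderm factors at 2.87 and 2.05 CPM and 1.85 and 2.27 CPM in P2, were at the floor in P3. P1 libraries were below P2 in both genes, with 1.00 and 0.756 CPM of EOMES and 0 and 0.126 CPM of HAND1. The endoderm factor FOXA2 rose from 0.633 and 0.560 CPM to 6.76 and 6.33 CPM (log2 fold change 3.45, SE 0.46, edgeR FDR = 0.000773) and was back at 0.549 and 0.135 CPM in P4. It was not called without P2-1 or P2-2. Of 27 pluripotency factors and markers the 4 higher DEGs were LEFTY1, LEFTY2, NODAL and GDF3, and TERT fell, from 15.4 and 16.6 CPM to 5.72 and 7.98 CPM (log2 fold change -1.22, SE 0.25, edgeR FDR = 0.00938), a call that 6 of the 8 libraries could each remove. Markers of trophoblast and amnion, fibroblasts and blood gave 0 DEGs in 7, 5 and 2 tested genes by edgeR and 1, 1 and 0 by DESeq2, with 3, 2 and 1 at an unadjusted p under 0.05. Of the 8 listed fibroblast markers COL3A1, DCN and LUM were at most 0.167 CPM in P2 and P3, but others were expressed. The 8 summed to 1011 and 1128 CPM in P2 and 1216 and 825 CPM in P3. The log2 fold changes of the 5 tested ran from -0.87 to 1.86. In bulk RNA, fewer cells of a type and less RNA per cell cannot be told apart.

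Imprinted genes, expressed from 1 parental copy, gave 1 higher and 3 lower DEGs among 31 tested, against 1.34% and 2.08% of all genes. H19 fell from 4.50 and 4.45 CPM to 0.506 and 0.390 CPM (log2 fold change -3.32, SE 0.37, edgeR FDR = 0.00022), NAP1L5 from 3.04 and 2.58 CPM to no counts, at least 29.6-fold, and NDN from 18.1 and 19.4 CPM to 6.41 and 8.87 CPM, a call lost without P1-1, P2-1, P2-2 or P3-1. The higher gene was INPP5F, whose counts pool its imprinted and other transcripts. Clustered protocadherin genes give neurons their surface identity and share their last exons within a cluster. Of 53 tested, 4 were higher (PCDHA6, PCDHB5, PCDHB12 and PCDHGB5), against 1.34% of all genes. Of their log2 fold changes 44 of 53 were above 0, with a median of 0.60. A single member was called without P2-1 or P2-2. Because of the shared exons the members are uncertain one by one.

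Mitotic kinases and spindle factors, the partners of TPX2, gave 2 DEGs among 34, against 3.42% of all genes. Besides TPX2 this was AURKC, from 0.950 and 0.869 CPM to 4.11 and 5.27 CPM (not called without P2-1 or P2-2), and AURKA was at 72.9 and 77.6 CPM in P2 and 94.4 and 96.7 CPM in P3 (log2 fold change 0.34, SE 0.18, edgeR FDR = 0.23). The median of the 34 log2 fold changes was 0.48, 31 were above 0, and 19 had an unadjusted p under 0.05. Oxidative phosphorylation subunits of the nucleus had 2 higher DEGs of 78, NDUFB11 and NDUFA9, against 1.34% of all genes. Both were lost without P3-1, the library with 18.4% mitochondrial counts, and without P1-1, P1-2, P2-1 or P2-2. Over the 18 mitochondrially encoded genes the median was 1.17 on the log2 scale, with 0 DEGs by edgeR or DESeq2, and 6 were higher at an unadjusted p under 0.05. This median rests on P3-1: mitochondrial counts were 7.53% of P3-2, near the 6.55% and 6.72% of P2, and the libraries of P1 (9.84% and 18.5%) and of P4 (17.2% and 5.89%) also differed from each other.

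Feedback genes of ERK signaling fell in 2 of 23 cases, DUSP4 and SPRY4 (8.70%, against 2.08% of all genes). Neither was called without P2-1, P2-2 or P3-2. Further lists that gave 0 DEGs by edgeR were DNA replication (25 genes), cytosolic ribosomal proteins (81), DNA methylation and demethylation enzymes (12), polycomb genes (24), epithelial and mesenchymal genes (22), clustered histone genes (37) and HOX genes (4). At an unadjusted p under 0.05 they held 7, 5, 2, 5, 11, 8 and 3 genes, and DESeq2 called 0, 0, 0, 1, 2, 1 and 0. Of the genes with a mean of at least 100 CPM over the lines compared, 81 were DEGs (3.76%), 38 higher and 43 lower, close to the 3.42% of all genes.

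**Figure D5:**
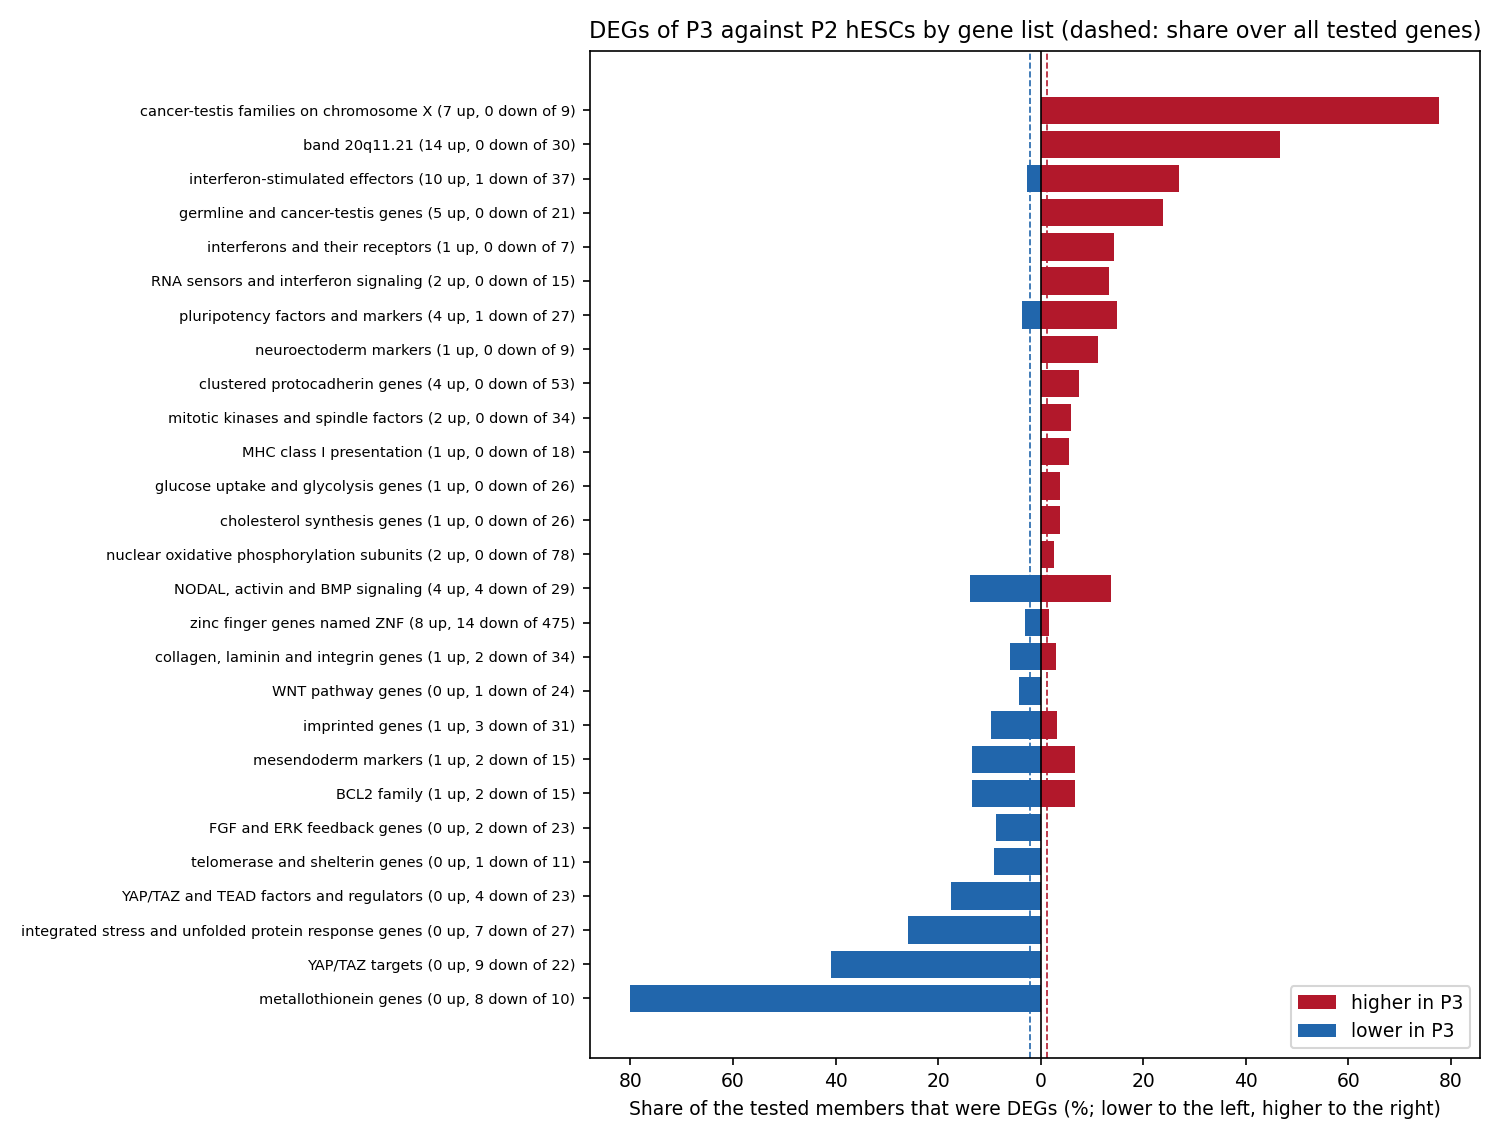
Share of the tested members of gene lists that were DEGs, in percent, with those higher in P3 to the right and those lower to the left. Dashed lines stand at the shares over all tested genes (1.34% and 2.08%). Lists without a DEG or with fewer than 7 tested genes were not drawn. The genes that answer DNA damage, over which no count is given, were not drawn either. Of the lists drawn, cancer-testis families of chromosome X (7 of 9) and band 20q11.21 (14 of 30) reach furthest to the right. Metallothioneins (8 of 10) and YAP/TAZ targets (9 of 22) reach furthest to the left among them.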

How the data were processed

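RNA was sequenced from 8 samples with a stranded mRNA kit. Per the submitters' processing notes the reads were trimmed with Trim Galore, aligned with STAR 2.7.3a and counted with RSEM 1.3.3 on GRCh38. The annotation release is not given in the sources used here. The authors deposited, per sample and gene, RSEM expected counts (estimated counts that need not be whole) and TPM, and the deposited FPKM column was not used. The expected counts were rounded and filtered with filterByExpr (19499 of 60675 genes kept), scaled by TMM, and tested with edgeR 4.0.16 (quasi-likelihood) in R 4.3.3 in a model of 4 lines. DESeq2 1.42.0, which the study used, limma 3.58.1 on deposited TPM and other alternatives are described below. SE is the absolute log2 fold change over the square root of F. Names and positions came from GENCODE 29. The scripts were tested on simulated counts. Depth was 26874899 to 38095600 counts, so 3 counts, the floor, equalled at most 0.0948 CPM in P2 and P3, a counting limit only. Named genes were all of 20q11.21, the 15 largest rises and falls with a symbol and at least 1 CPM, up to 6 rises and falls per list, and the genes the study names. Others (such as LCP1, IFIT1, IFIT3, ISG15, MT1F, MT1X, the X-linked genes and list members named in passing) were chosen after their values were seen. The members and lists were chosen with earlier results of these data known. XIST and Y-linked genes were left out of the text. Some genes are not reported here.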

Additional observations from a re-analysis of the deposited data

How the results depend on the processing

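The number of DEGs (667, 262 higher and 405 lower) was 1277 with DESeq2 (520 and 757), 1793 with no filter on low counts (677 and 1116), 2291 at an FDR under 0.05 with no minimum fold change (991 and 1300), 233 in limma on log2(TPM + 1) (62 and 171) and 274 on log2(TPM + 0.1) (72 and 202). DESeq2 shared 661 genes with the main test, the fit without a filter 667, and the TPM fits 201 and 238. On TPM the median log2 fold change of all genes was -0.21 and -0.31, and 26.6% and 26.3% of the DEGs were higher, against 39.3% by edgeR. There 2 genes of 20q11.21 passed, and TPX2 (1.73 and 1.75) and BCL2L1 (0.98 and 0.99) kept their direction but not their call. With 1 library left out the number of DEGs ranged from 177 to 856 (60 to 336 higher, 117 to 520 lower), those of 20q11.21 from 3 to 14, and the log2 fold changes of TPX2 from 1.90 to 2.12 and of BCL2L1 from 1.10 to 1.47. Without P3-2, 53.6% of 474 DEGs were higher. DESeq2's size factors within edgeR gave 665 DEGs, leaving out mitochondrial genes 682, and using only the P2 and P3 samples 603.

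The replicate numbers did not pair the samples (correlation of deviations -0.09 between P2 and P3). A fit with the replicate block gave 692 DEGs (274 higher and 418 lower), of which 606 were shared.

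Over the named genes no alternative reversed the direction of a DEG, and none called a gene in the direction opposite to the main test. Changes of sign in genes called in neither fit were not counted. Over all 667 DEGs, each of the 2 TPM fits kept the direction of 666. In settings other than a left-out library 114 values lost their call, 18 gained it and 1401 did neither, and with a library left out 186, 4 and 1346. With 2 samples a line, a loss without P2-1 or P2-2 leaves a lone P2 sample that is assumed to vary like the other lines, and its cause was not tested.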
